A study of Mus musculus with 4 samples.

Results

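Receptors of the TNF superfamily were followed in CMT64 mouse lung carcinoma cells after stimulation by TGF-β, TNF-α or both. The receptors were taken by gene name, with earlier results of these data known: Tnfrsf1a, Tnfrsf1b, Tnfrsf9, Tnfrsf10b, Tnfrsf11b, Tnfrsf12a, Tnfrsf21, Fas, Cd40 and Ltbr, which are 10 of the 25704 genes listed for each library. A further 18 receptors of the superfamily are treated as a separate list. CMT64 is an established line from a mouse lung carcinoma with an intact p53 gene. The cells were kept for 24 h as a negative control, given TGF-β at 5 ng/ml or TNF-α at 10 ng/ml, or given both cytokines (costimulation), and poly(A) RNA was sequenced. Each condition had 1 library, 4 in all, so no value can be set against a spread between cultures.

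Receptors of this superfamily bind trimeric ligands through cysteine-rich repeats outside the cell. Those with a death domain in the cytoplasm can recruit adaptors that lead to caspase activation, whereas those without it recruit TRAF proteins, which act as scaffolds for NF-κB and MAP kinase signalling. A soluble member such as osteoprotegerin binds ligand without signalling. TNF-α itself acts through Tnfrsf1a, which most cell types express, and Tnfrsf1b, which is more restricted, and TGF-β signals through Smad proteins.

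Exon reads per library came to between 67481462 and 71898396, and 86.7% to 88.5% of them were unique. Of the 5 epithelial markers 4 were tested and 3 fell with TGF-β in the edgeR test used for the receptors, namely Krt19 by 1.75, Cdh1 by 1.05 and Krt8 by 0.46 on the log2 scale (edgeR adjusted p = 2.2e-43, 2.2e-16 and 4.1e-04). Epcam was near absent, at 0.0422 to 0.103 RPKM (reads scaled to exon length and to the mapped reads). Of the 7 fibroblast markers 3 were tested and 2 rose with TGF-β, namely Col1a1 and Pdgfrb. Pdgfrb had 2 reads in control cells, 34 with TGF-β, 1 with TNF-α and 56 under costimulation. It entered the test only through the libraries with TGF-β, where it was higher. The summed RPKM of all 7 was 0.485 in control cells, 9.68 with TGF-β, 0.459 with TNF-α and 11.6 under costimulation. Most of it was Col1a1, at 0.414, 9.51, 0.402 and 11.4 RPKM, while Pdgfrb reached 0.135 and each of the rest at most 0.0428. Of the 6 alveolar markers both that could be tested fell with TGF-β: Abca3, at 9.56 to 14.1 RPKM, and Nkx2-1, which had 189 reads in control cells, 1 with TGF-β, 177 with TNF-α and 9 under costimulation. Nkx2-1 entered the test only through the libraries without TGF-β, where it was higher. Scgb1a1 had 0 reads and Sftpc at most 1. The summed RPKM of the 9 haematopoietic markers was 1.86 to 2.16, mostly from Cd68, and of the 4 tested 1 rose and 2 fell with TGF-β. Csf1r, which rose, entered the test only through the libraries with TGF-β, and Itgam and Coro1a, which fell, only through those without it. Cd52 had 0 reads in every library, which allows up to 3 reads per library. The 5 endothelial markers summed to at most 0.103 RPKM, and neither of the 2 tested passed. The shifts of the named epithelial and alveolar markers and of Col1a1 went with TGF-β as several receptors did, and their part in the receptor values was not tested. In such bulk RNA, fewer cells that express a gene and less RNA per cell cannot be told apart.

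Promoter sequences are shown for Tnfrsf9, the receptor gene that rose with TNF-α, and for Tnfrsf1b, whose exon and intron reads moved in opposite directions. RefSeq (GRCm38.p6, which has the mm10 coordinates) gave promoters for 7 of the 10 genes in 8 windows, each with 250 bases before and 50 after a start site. The windows were searched on both strands for the κB motif of NF-κB, the AP-1 motif TGANTCA, the palindromic Smad element GTCTAGAC and the TEAD motif GGAATG. Capitals mark the matches, and each sequence is read in the direction of the gene.

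Tnfrsf9, start site at the downstream window, chr4:150927749-150928048, plus strand: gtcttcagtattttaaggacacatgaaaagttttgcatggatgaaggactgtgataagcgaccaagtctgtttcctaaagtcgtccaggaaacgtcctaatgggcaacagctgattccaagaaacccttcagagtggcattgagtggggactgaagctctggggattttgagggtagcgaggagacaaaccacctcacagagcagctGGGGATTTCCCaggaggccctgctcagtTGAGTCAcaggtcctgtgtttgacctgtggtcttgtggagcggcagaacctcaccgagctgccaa

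Tnfrsf9, start site at the upstream window, chr4:150919905-150920204, plus strand: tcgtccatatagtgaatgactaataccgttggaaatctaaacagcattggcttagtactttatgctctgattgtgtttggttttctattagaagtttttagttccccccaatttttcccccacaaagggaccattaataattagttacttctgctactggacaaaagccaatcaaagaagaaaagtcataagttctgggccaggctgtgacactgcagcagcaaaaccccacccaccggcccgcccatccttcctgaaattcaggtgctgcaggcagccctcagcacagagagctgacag

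Tnfrsf1b, chr4:145246821-145247120, minus strand: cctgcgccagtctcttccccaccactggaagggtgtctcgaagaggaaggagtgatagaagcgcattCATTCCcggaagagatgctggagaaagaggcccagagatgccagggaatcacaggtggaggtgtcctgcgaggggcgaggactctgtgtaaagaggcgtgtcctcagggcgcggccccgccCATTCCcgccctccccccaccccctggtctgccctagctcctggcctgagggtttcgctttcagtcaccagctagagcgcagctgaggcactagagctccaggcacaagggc

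The downstream window of Tnfrsf9 held a pair of overlapping κB matches, which began 43 and 42 bases before the start site, and an AP-1 match 15 bases before it. These did not overlap the AP-1 match, and the upstream window of the same gene held no match. The κB motif was present in 1 of the 8 windows, against 4.51% of the 32851 mouse promoters in the same table. The TEAD motif was found on the reverse strand in the Tnfrsf1b window, 183 and 62 bases before the start site, and in none of the other windows. It was present in 14.7% of all promoters. The AP-1 motif, present in 7.81% of all promoters, occurred also in the Fas window, 211 bases before the start site. The Smad element, present in 0.213%, had no match in the 8 windows. A match describes letters only, and binding was not measured.

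The receptor genes spanned a wide range of levels. In control cells the order by RPKM was Tnfrsf12a, Tnfrsf21, Ltbr, Tnfrsf1a, Tnfrsf1b, Tnfrsf10b, Tnfrsf9, Tnfrsf11b, Fas and Cd40. The neighbours Tnfrsf1b and Tnfrsf10b did not differ beyond counting error, with 95% counting intervals of 5.57 to 6.14 and 5.34 to 5.95 RPKM in control cells, and the same held with TNF-α (6.41 to 7.01 and 6.01 to 6.64). These and all later intervals cover counting error only. In both libraries with TGF-β, Ltbr stood above Tnfrsf21 and Tnfrsf10b above Tnfrsf1b, and with TGF-β alone Tnfrsf11b stood above Tnfrsf9.

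**Figure D1:**
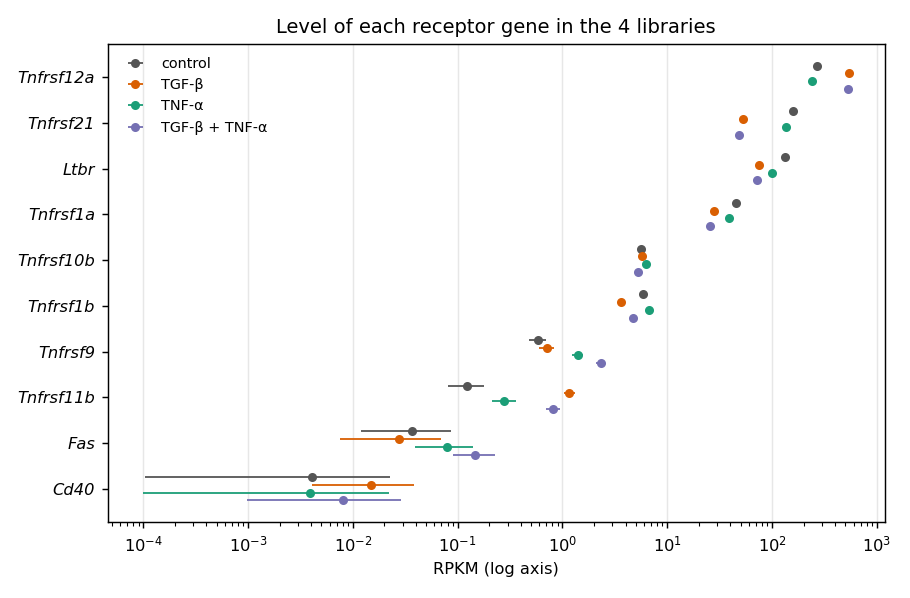
Levels of the 10 receptor genes in the 4 libraries, as RPKM on a log axis. Points are single libraries (grey control, orange TGF-β, green TNF-α, purple costimulation) and bars are 95% counting intervals. Tnfrsf12a lay between 242 and 541 RPKM and Cd40 at most at 0.0150.

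The summed RPKM of the 10 receptor genes was 619 in control cells, 708 with TGF-β, 530 with TNF-α and 693 under costimulation. Without Tnfrsf12a the sum was 349, 168, 288 and 159 RPKM in the same order, so the libraries with TGF-β were the higher ones in the first sum and the lower ones in the second. Tnfrsf12a made up 43.7% of the sum in control cells and 45.7% with TNF-α, against 76.3% with TGF-β and 77.0% with costimulation. The share of Tnfrsf21 was 25.4% and 25.5% in the libraries without TGF-β, and 7.48% and 6.99% in those with it.

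**Figure D2:**
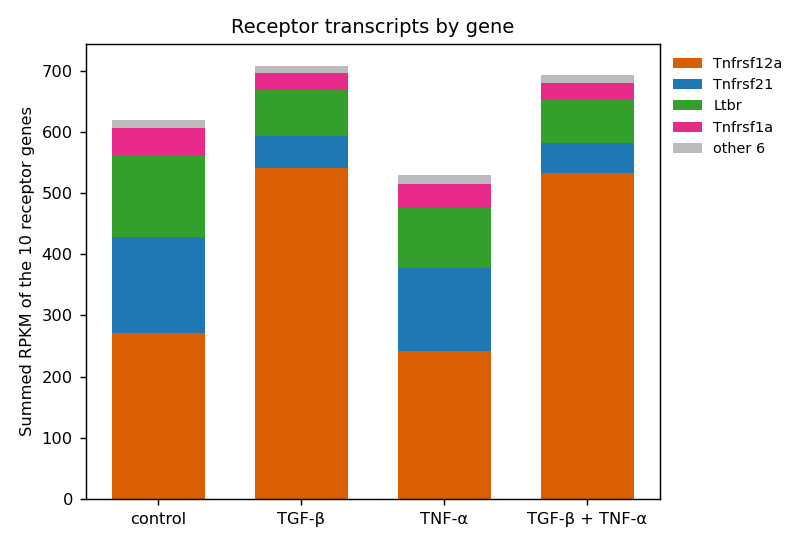
Summed RPKM of the 10 receptor genes in each library (bars from 0, coloured by gene, the 6 lowest genes in grey). The Tnfrsf12a part is the larger one in both libraries with TGF-β, at 76.3% and 77.0% of the sum.

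Each cytokine was tested with edgeR's quasi-likelihood test in 1 fit to all 4 libraries, in which the cytokines entered as additive terms. The effect of each cytokine is thus the mean over its absence and presence of the other one, and the departure from additivity, with 1 residual degree of freedom, stands in for the spread between cultures. Of the 10 receptor genes 9 had enough reads for this test, Fas only through the libraries with TNF-α, where it was higher, and Cd40 did not. With TGF-β, 2 of the 9 rose (Tnfrsf12a and Tnfrsf11b) and 4 fell (Tnfrsf21, Ltbr, Tnfrsf1a and Tnfrsf1b), where 18.6% of the 13509 genes tested rose and 19.9% fell at an edgeR adjusted p under 0.05. The same 2 genes were higher, and the same 4 lower, in both libraries with TGF-β than in both without it, while 41.6% of all genes tested were so higher and 30.9% so lower. The median log2 fold change of the 9 genes was -0.19 for TGF-β, against 0.01 over all genes tested.

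Tnfrsf12a (Fn14, the receptor of the cytokine Tweak, which has a short cytoplasmic tail that binds TRAF proteins) lay at 271 RPKM in control cells, 541 with TGF-β, 242 with TNF-α and 533 under costimulation. Both libraries with TGF-β were above both without it, and the ratio for TNF-α was 0.894 in the absence and 0.987 in the presence of TGF-β. It rose with TGF-β by 1.00 on the log2 scale (SE 0.13), with an edgeR adjusted p of 7.2e-14. The single-library ratio was 1.998 for TGF-β over control (95% counting interval 1.97 to 2.03), and between costimulation and TNF-α it was 2.20 (2.17 to 2.24).

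Tnfrsf11b (osteoprotegerin, the soluble decoy receptor of Rankl) was low, with 26 reads in control cells, 266 with TGF-β, 61 with TNF-α and 174 under costimulation. The corresponding levels were 0.122, 1.16, 0.279 and 0.813 RPKM, and both libraries with TGF-β were above both without. It rose with TGF-β by 2.26 (log2, SE 0.33, edgeR adjusted p = 1.7e-10), the highest log2 fold change among the receptor genes. Without the TNF-α library the estimate was 2.92, and without the control library 1.76. These fits kept only TGF-β as a term, so the TNF-α difference is part of both estimates. The ratio was 9.49 for TGF-β over control (6.33 to 14.8), and between costimulation and TNF-α it was 2.91 (2.16 to 3.97).

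Tnfrsf21 (death receptor DR6, which carries a death domain) lay at 157 RPKM in control cells, 52.98 with TGF-β, 135 with TNF-α and 48.4 under costimulation. The groups with and without TGF-β did not overlap. The gene fell by 1.59 on the log2 scale with TGF-β (SE 0.13, edgeR adjusted p = 3.8e-32). The ratio was 0.337 (0.331 to 0.343) without TNF-α and 0.359 (0.352 to 0.366) with it.

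Tnfrsf1a (TNFR1, the death-domain receptor through which TNF-α acts in most cell types) lay at 44.9 RPKM in control cells, 27.8 with TGF-β, 39.0 with TNF-α and 25.5 under costimulation. It fell with TGF-β by 0.72 on the log2 scale (SE 0.15, edgeR adjusted p = 1.1e-05). Ltbr (the lymphotoxin β receptor, which drives the non-canonical NF-κB pathway) lay at 134, 75.8, 99.1 and 72.0 RPKM in the same order. It fell with TGF-β by 0.71 on the log2 scale (SE 0.14, edgeR adjusted p = 1.4e-06). In both genes the libraries with TGF-β were below those without.

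Ltbr and Tnfrsf1a are neighbours on mouse chromosome 6 (mm10), at chr6:125306571-125313885 on the minus strand and chr6:125349362-125362484 on the plus strand, 35476 bases apart. The 1 gene between them, Scnn1a (an epithelial sodium channel subunit), had 3.42 RPKM in control cells, 1.95 with TGF-β, 2.62 with TNF-α and 1.63 under costimulation. Its libraries with TGF-β were also the lower ones, as held for 30.9% of all genes tested.

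Tnfrsf1b (TNFR2, a TNF-α receptor without a death domain) lay at 5.85 RPKM in control cells, 3.66 with TGF-β, 6.71 with TNF-α and 4.76 under costimulation. Both libraries with TGF-β were below both without. It fell with TGF-β by 0.65 on the log2 scale (SE 0.15, edgeR adjusted p = 8.4e-05). Without the library treated with TGF-β alone the estimate was -0.47. That fit kept only TGF-β as a term and its 1 library with TGF-β also had TNF-α, so the TNF-α difference is part of the estimate.

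The remaining receptor genes did not pass the test for TGF-β. Tnfrsf10b (the mouse receptor of the death ligand Trail) had the narrowest range of the 10 genes as a ratio, 1.21 between its highest and lowest library, with 5.64 RPKM in control cells, 5.72 with TGF-β, 6.32 with TNF-α and 5.25 under costimulation. Its log2 fold change with TGF-β was -0.19 (SE 0.15, edgeR adjusted p = 0.336). Without the control library it was -0.27. That fit kept only TGF-β as a term and its 1 library without TGF-β had TNF-α, so the TNF-α difference is part of the estimate.

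Fas (the receptor of Fas ligand) had 5 reads in control cells, 4 with TGF-β, 11 with TNF-α and 20 under costimulation. Cd40 (a costimulatory receptor of antigen-presenting cells) had 1, 4, 1 and 2 reads. A fold for Cd40 was not detectable at this depth, since 3 of its 4 libraries did not exceed 3 reads.

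**Figure D3:**
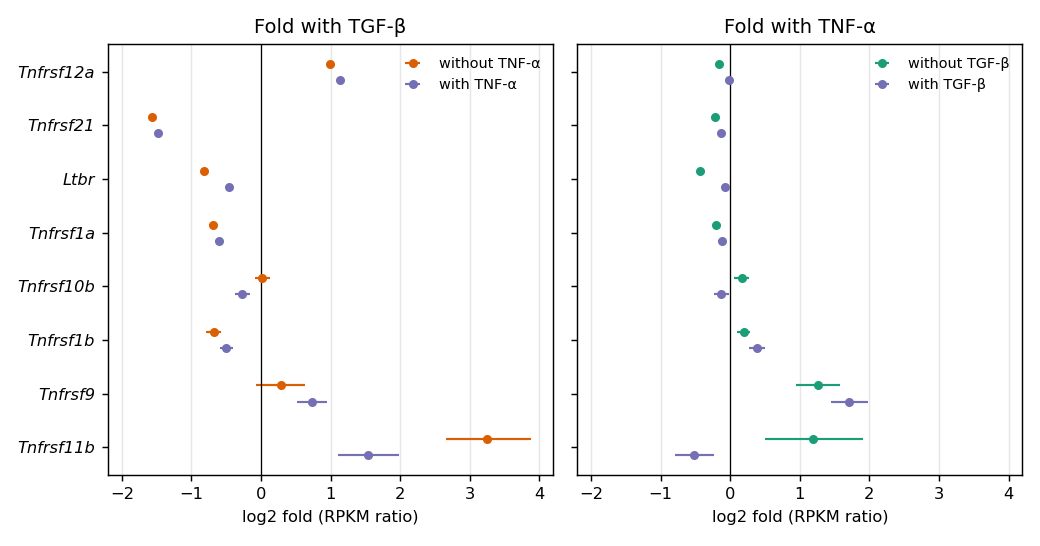
Single-library log2 ratios of RPKM with TGF-β (left) and with TNF-α (right), each in the absence and in the presence of the other cytokine. Bars are 95% counting intervals, and Fas and Cd40 are not drawn. Tnfrsf12a and Tnfrsf11b lie right of 0 and Tnfrsf21, Ltbr, Tnfrsf1a and Tnfrsf1b left of 0 in both settings of TGF-β, while Tnfrsf9 lies right of 0 in both settings of TNF-α.

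With TNF-α, 1 of the 9 receptor genes tested rose (Tnfrsf9) and 0 fell, where 0.289% of all genes tested rose and 0.133% fell. At an unadjusted p under 0.05, edgeR also gave 0 receptor genes lower with TNF-α, where 568 of the 13509 genes tested had such a p in either direction, and DESeq2 called 0 lower. At that share a count of 0 among 9 genes says little. Ltbr stood just past the cut, with a log2 fold change of -0.27 (edgeR unadjusted p = 0.0504). Tnfrsf9 was higher in both libraries with TNF-α than in both without it (5.95% of all genes tested were so higher), and 0 receptor genes were so lower (5.40%). Fas entered the test only through its libraries with TNF-α and is not counted here. The median log2 fold change of the 9 genes, which do include Fas at 1.75, was 0.01 for TNF-α, and 0.00 over all genes tested.

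Tnfrsf9 (4-1BB, a TRAF-binding costimulatory receptor best known from activated T cells) had 119 reads in control cells, 156 with TGF-β, 294 with TNF-α and 478 under costimulation. The levels were 0.581, 0.706, 1.39 and 2.31 RPKM, and both libraries with TNF-α were above both without it. It rose with TNF-α by 1.48 on the log2 scale (SE 0.24, edgeR adjusted p = 6.1e-07). DESeq2 with the same terms gave an adjusted p of 0.0127. With any 1 library left out, where only TNF-α could be kept as a term, the estimates were 1.42 (without control), 1.62 (without TGF-β), 1.81 (without TNF-α) and 1.14 (without costimulation), and the edgeR adjusted p was 0.969 to 1.00. In those fits 0 genes passed in all, with 26 to 90 genes at an unadjusted p under 0.05.

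The single-library ratio of Tnfrsf9 was 2.40 for TNF-α over control (1.93 to 2.99), and between costimulation and TGF-β it was 3.28 (2.73 to 3.95). Its TGF-β ratio was 1.22 (0.952 to 1.56) without TNF-α and 1.66 (1.43 to 1.93) with it, and the log2 fold change for TGF-β was 0.46 (SE 0.24, edgeR adjusted p = 0.116). Only 37.8% to 43.6% of its exon reads were unique, the lowest share among the receptor genes with over 20 reads in a library. In each library the authors' software listed 0 of its 8 annotated transcripts as detected. With unique reads alone the TNF-α ratios were 2.55 (1.79 to 3.67) and 3.24 (2.45 to 4.33), and with reads over exon junctions 2.53 (1.79 to 3.64) and 3.22 (2.44 to 4.30). Unique and junction reads had nearly the same counts, such as 45 and 46 in control cells and 206 and 208 under costimulation. They may thus not be separate readouts. The gene, at chr4:150914562-150946102, overlaps Camta1 on the opposite strand, and the library kit as described marks no strand, so reads of either gene in shared exons cannot be told apart. Camta1 had 383 reads in control cells, 546 with TGF-β, 433 with TNF-α and 567 under costimulation, and its part in the reads of Tnfrsf9 was not tested.

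Fas, with 11 and 20 reads in the libraries with TNF-α against 5 and 4 in those without, did not pass the test (edgeR adjusted p = 0.942). Its ratio for costimulation over TGF-β was 5.35, with a counting interval from 1.79 to 21.5. Both receptors of TNF-α missed the test with an edgeR adjusted p of 1.00. The log2 fold change was -0.17 (SE 0.15) for Tnfrsf1a and 0.28 (SE 0.15) for Tnfrsf1b.

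The control library differed from the others in base composition. Across 13503 genes the log2 ratio of TNF-α over control had a Spearman correlation of -0.53 with the GC content of the exons. The correlation was -0.25 for TGF-β over control, -0.23 for costimulation over control, and 0.07 and 0.02 between costimulation and each single cytokine (TGF-β, TNF-α), as a description over genes that share the same libraries. The GC content was 57.9% for Tnfrsf12a, 60.4% for Ltbr and 55.9% for Tnfrsf1a, against a median of 50.2% over all these genes. The ratio of TNF-α over control was 0.894 for Tnfrsf12a, 0.738 for Ltbr and 0.868 for Tnfrsf1a. With offsets for GC content and transcript length, chosen after seeing the data, it was 1.06, 0.902 and 1.01, so that the direction flipped in Tnfrsf12a and Tnfrsf1a. For costimulation over TGF-β the ratio without offsets was 0.987, 0.951 and 0.919 in the same order. The offsets also moved the ratio of TGF-β over control, from 1.998 to 2.47 for Tnfrsf12a, from 0.564 to 0.690 for Ltbr and from 0.619 to 0.730 for Tnfrsf1a, and all 3 genes passed the edgeR test for TGF-β with them.

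A gene was also counted as past a threshold of size when its single-library ratio was above 2, or below 0.5, with more than 2 RPKM in the higher library. For TGF-β over control 1 receptor gene, Tnfrsf21, was below 0.5 and 0 were above 2, against 6.05% and 5.73% of the genes with that RPKM. Tnfrsf12a stood just short of 2 at 1.998, and Tnfrsf11b did not reach 2 RPKM. For costimulation over control, Tnfrsf9 at 3.98 was above 2 (background 5.75%), Tnfrsf21 at 0.308 below 0.5 (6.29%), and Tnfrsf12a at 1.97 just short of 2.

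For costimulation over TNF-α, Tnfrsf12a was above 2 (4.65%) and Tnfrsf21 below 0.5 (5.21%). For TNF-α over control 0 receptor genes passed in either direction, where 0.25% of genes were above 2 and 0.0833% below 0.5. For costimulation over TGF-β, Tnfrsf9 was above 2 (0.136%) and 0 were below 0.5 (0.0417%). Comparisons that use the same library, such as those over control, share its error.

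The responses to both cytokines together were set against the sum of the single responses as the log2 ratio of TGF-β with TNF-α minus that without it. This departure was 0.14 for Tnfrsf12a, 0.09 for Tnfrsf21, 0.08 for Tnfrsf1a, 0.18 for Tnfrsf1b, 0.36 for Ltbr and -0.29 for Tnfrsf10b. All 6 lie within the range from -0.47 to 0.41 that held the middle of 9933 genes with more than 2 RPKM in a library, between the 5th and 95th percentile. For that range 0.5 was added to each RPKM, which narrows the departures of low genes, and for the receptor values it was not. The departure was 0.45 for Tnfrsf9 (counting SE 0.21), also without the added 0.5 and so not placed in that range. For Tnfrsf11b, which did not reach 2 RPKM and so has no place among those genes, it was -1.70 (counting SE 0.37). With single libraries these departures have no test.

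Intron reads, which come mostly from unspliced RNA, gave a second readout. Across all genes they were 6.72% of gene reads in control cells, 8.50% with TGF-β, 8.16% with TNF-α and 8.17% under costimulation. For Tnfrsf12a the intron ratio was 1.602 for TGF-β over control (1.52 to 1.68) and 1.87 between costimulation and TNF-α (1.78 to 1.97), the direction of its exon reads. For Tnfrsf21 it was 0.450 (0.409 to 0.494) and 0.375 (0.339 to 0.413), also the direction of its exon reads. The intron ratios of Ltbr (0.602 and 0.662) and Tnfrsf1a (0.801 and 0.705) were below 1 as well.

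Tnfrsf1b was the exception. Its intron reads numbered 97 in control cells, 148 with TGF-β, 112 with TNF-α and 192 under costimulation, and both libraries with TGF-β were above both without. The intron ratio was 1.42 for TGF-β over control (1.09 to 1.85) and 1.75 between costimulation and TNF-α (1.38 to 2.23), whereas the exon ratio was 0.625 (0.579 to 0.674) and 0.709 (0.662 to 0.760). Reads over exon junctions followed the exons, at 0.629 (0.539 to 0.733) and 0.734 (0.641 to 0.840). Introns thus held 5.45% of the reads of Tnfrsf1b in control cells and 5.34% with TNF-α, against 11.5% with TGF-β and 12.2% with costimulation. The annotation shows no gene that overlaps Tnfrsf1b at chr4:145213463-145246870. The intron share over all genes was likewise above control with TGF-β (8.50% against 6.72%), but also with TNF-α (8.16%), where that of Tnfrsf1b was 5.34%, and its part was not tested.

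**Figure D4:**
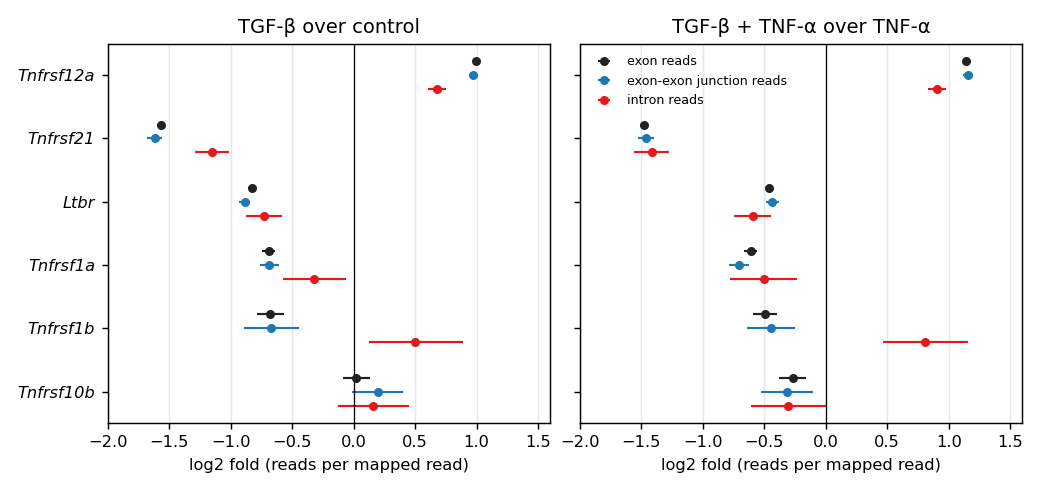
Single-library log2 ratios for TGF-β over control (left) and for both cytokines over TNF-α alone (right), from exon reads (black), reads over exon junctions (blue) and intron reads (red), per mapped read. Bars are 95% counting intervals. The intron ratios of Tnfrsf1b, 1.42 and 1.75, lie right of 0 on this log2 axis while its exon ratios, 0.625 and 0.709, lie left of it.

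The 3 receptor genes with the widest range of log2(RPKM + 0.5) over the libraries (a scale on which the sparse Fas and Cd40 vary little) were set beside the genes of most similar pattern, measured as the Euclidean distance between these values centred on the 4 libraries. The distances describe 4 libraries only. Nearest to Tnfrsf21 were Krt13 (a keratin) at 0.033, and Atp7b (a copper transporter) and Wfdc2 (a secreted protein of epithelia) at 0.038. The added 0.5 narrows the ratios of genes at low RPKM. From control to TGF-β, Krt13 went from 2.08 to 0.365 RPKM and Atp7b from 2.91 to 0.624, steeper falls than that of Tnfrsf21. Wfdc2 lay at 478 RPKM in control cells, 161 with TGF-β, 414 with TNF-α and 144 under costimulation. Nearest to Tnfrsf11b were Sept6 (a septin) at 0.144, Cdh6 (a cadherin) at 0.145 and Siglec15 (a sialic acid-binding receptor) at 0.160. Sept6 went from 4.54 RPKM in control cells to 11.6 with TGF-β, a smaller ratio than the 9.49 of Tnfrsf11b.

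Nearest to Tnfrsf9 were Nfkbie at 0.326 and Relb at 0.341, an inhibitor and a subunit of NF-κB, and the gene model Gm29609 at 0.379. Relb lay at 4.58 RPKM in control cells, 4.43 with TGF-β, 10.0 with TNF-α and 11.4 under costimulation. All 3 distances were above those of the genes nearest to Tnfrsf21.

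**Figure D5:**
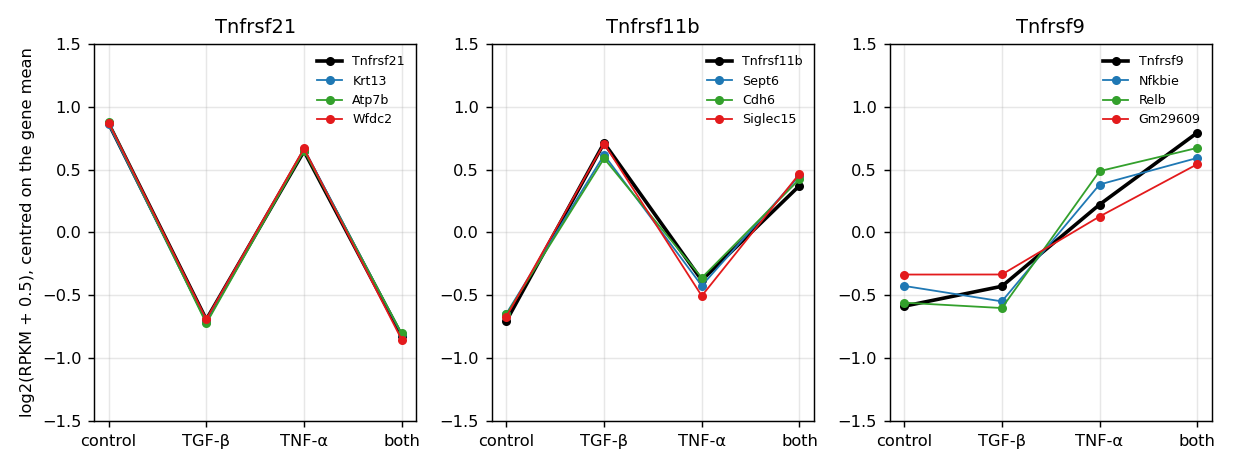
Pattern over the 4 libraries of Tnfrsf21, Tnfrsf11b and Tnfrsf9 (black) and of the 3 genes nearest to each (coloured), as log2(RPKM + 0.5) centred on the mean of each gene. On this scale, where the added 0.5 narrows the ratios of low genes, the lines of Tnfrsf21 and its neighbours nearly coincide, with distances up to 0.038. Those of Tnfrsf9 lie further apart, up to 0.379.

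Of 18 other receptors of the superfamily, 12 were tested, 2 rose and 1 fell with TGF-β, and 0 changed with TNF-α. For this list and those below, the shares over all genes tested were 18.6% higher and 19.9% lower with TGF-β. With TNF-α they were 0.289% and 0.133%. The lists were not tested as sets against these shares. Relt (a TRAF-binding receptor) lay at 0.862 RPKM in control cells, 4.06 with TGF-β, 0.691 with TNF-α and 3.46 under costimulation, and rose with TGF-β by 2.21 on the log2 scale (SE 0.19, edgeR adjusted p = 6.8e-31). The decoy receptors Tnfrsf22 and Tnfrsf23 had the highest levels, at 22.2 to 24.6 and 24.6 to 33.2 RPKM, and did not pass the test. Relt, Tnfrsf22 and Tnfrsf23 were the 3 of the 18 that exceeded 2 RPKM in a library.

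Of 20 ligands, 8 were tested. With TGF-β 1 rose and 3 fell, and with TNF-α 0 changed. Tnfsf12 (Tweak, the ligand of Tnfrsf12a) lay at 10.9 RPKM in control cells, 8.12 with TGF-β, 9.72 with TNF-α and 6.62 under costimulation, and fell with TGF-β by 0.55 on the log2 scale (SE 0.15, edgeR adjusted p = 0.00142), opposite to its receptor. Tnfsf9, the ligand of Tnfrsf9, lay at 10.5, 4.91, 5.91 and 7.44 RPKM and fell with TGF-β by 0.45 (SE 0.18, edgeR adjusted p = 0.0391), although its library with both cytokines was above that with TNF-α alone.

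Tnfsf13 (April, which acts on B cells) lay at 4.86 RPKM in control cells, 0.759 with TGF-β, 4.07 with TNF-α and 0.804 under costimulation, and fell with TGF-β by 2.58 (SE 0.23, edgeR adjusted p = 6.4e-28). App, a ligand proposed for Tnfrsf21, was the highest of the list at 59.2 to 69.9 RPKM, with a log2 fold change of 0.14 (edgeR adjusted p = 0.424) for TGF-β.

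All 30 genes of the signalling list, which act between the receptors and NF-κB, were tested. With TGF-β 7 rose and 4 fell, and with TNF-α 4 rose and 0 fell, with a median log2 fold change of 0.13 and 0.10. Nfkbia (the NF-κB inhibitor IκBα) rose with TNF-α by 1.28 on the log2 scale (SE 0.15, edgeR adjusted p = 2.2e-13) and fell with TGF-β by 0.85 (SE 0.15, adjusted p = 1.7e-07). Relb rose with TNF-α by 1.24 (SE 0.15, edgeR adjusted p = 1.9e-12). Tnfaip3 (A20, a ubiquitin-editing inhibitor of NF-κB) lay at 5.66 RPKM in control cells, 17.3 with TGF-β, 12.1 with TNF-α and 23.0 under costimulation, and rose with both cytokines, by 1.198 for TGF-β and 0.739 for TNF-α (edgeR adjusted p = 9.6e-14 and 7.4e-04). The adaptor Traf3 rose with TGF-β by 0.67 and Traf4 fell by 0.64 (edgeR adjusted p = 6.2e-05 and 1.9e-05).

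Of the 12 genes of the death pathway downstream of these receptors, 1 rose and 5 fell with TGF-β and 0 changed with TNF-α. Cflar (cFLIP, an inhibitor of caspase-8 at the receptor) lay at 4.76 RPKM in control cells, 9.06 with TGF-β, 6.19 with TNF-α and 8.57 under costimulation, and rose with TGF-β by 0.63 on the log2 scale (edgeR adjusted p = 1.7e-04). The necroptosis effector Mlkl fell by 0.45 and the mitochondrial Diablo by 0.41 (edgeR adjusted p = 0.00986 and 0.0192). Of 5 genes of receptor shedding, the protease Adam10 rose with TGF-β by 0.39 and Rhbdf2, a partner of Adam17, fell by 0.39 (edgeR adjusted p = 0.0231 and 0.0249), and 0 changed with TNF-α.

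The p53 targets were listed because Fas and Tnfrsf10b are p53 targets too. Of 14 genes 13 were tested, 2 rose and 6 fell with TGF-β, and 0 changed with TNF-α. The cell cycle inhibitor Cdkn1a fell by 0.94, Sesn2 (a stress-induced regulator) by 1.05 and Trp53inp1 by 0.98, and the kinase gene Plk2 rose by 1.00 (edgeR adjusted p = 4.6e-10, 1.5e-11, 1.4e-09 and 6.5e-11).

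Of 14 known NF-κB targets 11 were tested. With TNF-α 5 rose and 0 fell, and with TGF-β 3 rose and 5 fell, with a median log2 fold change of 0.47 for TNF-α and -0.70 for TGF-β. Cxcl2, counted as rising with TNF-α, had 1, 5, 42 and 11 reads in control, TGF-β, TNF-α and costimulated cells. It entered the test only through the libraries with TNF-α. Il6, counted as rising with TGF-β, had 2, 13, 2 and 12 reads and entered only through those with TGF-β. The chemokine Cxcl5 lay at 28.0 RPKM in control cells, 4.92 with TGF-β, 68.4 with TNF-α and 14.0 under costimulation. It rose with TNF-α by 1.39 and fell with TGF-β by 2.46 (edgeR adjusted p = 2.1e-15 and 2.7e-51). The adhesion molecule Vcam1 rose with TNF-α by 1.14 and fell with TGF-β by 2.54 (edgeR adjusted p = 2.7e-10 and 3.3e-54). Icam1 fell with TGF-β by 0.92 and the growth factor gene Csf1 rose by 1.84 (edgeR adjusted p = 1.1e-08 and 5.6e-30).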

How the data were processed

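RNA was measured in CMT64 cells under 4 conditions with 1 library each. Adapter trimming, mapping to mm10 (named in the submitters' processing notes) and counting were done by the authors in CLC Genomics Workbench, whose version is not given in the sources used here. The deposited counts are whole reads per gene, of which total reads include those with several hits. In the deposited RPKM values the authors scaled all exon reads to the exon length and the mapped reads of the library. The deposited TPM values are the RPKM rescaled by the authors and were not used. Strand was not used.

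Total exon reads were tested with edgeR (4.0.16) in R (4.3.3), with TMM scaling, filterByExpr, robust quasi-likelihood fits and a term for each cytokine. The Benjamini-Hochberg adjustment ran over the 13509 genes tested, with a threshold of 0.05, and standard errors come from the F statistic. The fit was tested on simulated data. The p-values are of the cytokine terms, and the departure from additivity supplies their residual spread. Ratios are of RPKM, with exact 95% conditional binomial intervals (Clopper-Pearson). Positions and GC content come from GENCODE M21, and promoters from RefSeq.

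The receptors, gene lists and tests were chosen with earlier results of these data known. Named beside the receptors are, per list, called genes above 2 RPKM, at most 4 by size for TGF-β and 2 for TNF-α, for receptors and ligands also the 3 highest, and for likeness the 3 nearest genes above 2 RPKM. Some genes that this rule takes are not reported here. Alternatives were DESeq2 (1.42.0), limma (3.58.1) on log2(RPKM + 0.1) and log2(RPKM + 1), other scalings, filters, unique reads, 1 term, GC and length offsets, and each library left out. Python (3.11.15) served for the rest.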

Additional observations from a re-analysis of the deposited data

Results flagged for a closer look

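Of the receptor genes, 3 had a cytokine ratio that pointed one way without the other cytokine and the opposite way with it, between single libraries, and none of these differences was tested. The TNF-α ratio of Tnfrsf11b was 2.28 (1.42 to 3.76) without TGF-β and 0.699 (0.574 to 0.850) with it. The departure was -1.70 on the log2 scale, from 26, 266, 61 and 174 reads in control, TGF-β, TNF-α and costimulated cells. This gene had a GC content of 42.9%, and the log2 ratio of TNF-α over control had a Spearman correlation of -0.53 with GC content across genes. Tnfrsf10b had a TGF-β ratio of 1.01 (0.942 to 1.09) without TNF-α and 0.830 (0.770 to 0.894) with it, and a TNF-α ratio of 1.12 (1.04 to 1.21) without TGF-β and 0.917 (0.850 to 0.989) with it, a departure of -0.29. The opposite direction of its TGF-β ratios was lost with other scalings, where the ratio without TNF-α was 0.965 (TMM), 0.963 (DESeq2 size factors) and 0.948 (GC and length offsets), and with unique reads it was 0.9999. Fas had a TGF-β ratio of 0.742 (0.147 to 3.45) without TNF-α and 1.86 (0.848 to 4.29) with it, a departure of 1.32 that rests on 4 to 20 reads per library, and both intervals include 1.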

How the results depend on the processing

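No paired analysis was possible because each condition had 1 library. For TGF-β, 5191 genes passed in all, and with a library left out 3111 to 7475. The count of receptor genes higher (2) and lower (4) with TGF-β stayed within 1.5 times under every alternative, although Tnfrsf1b missed the test without the TGF-β library. For TNF-α, 57 genes passed, against 19 with DESeq2, 32 with limma on log2(RPKM + 1), and 0 with TNF-α as the only term (21 at an unadjusted p under 0.05) or with any 1 library left out. In the fits with 1 term the TGF-β difference stays in the residual. The count of receptor genes higher with TNF-α, 1 in the additive fit, was 0 in those same fits. Tnfrsf9 passed for TNF-α in the other 7 alternatives. For TGF-β it passed in 3 of 12: limma on log2(RPKM + 1) (adjusted p = 0.0394), GC and length offsets (0.0292) and without the TGF-β library (0.00132). In that last fit the only library with TGF-β also had TNF-α, so the TNF-α response of Tnfrsf9 is part of the estimate of 1.16, and without the costimulated library, where it enters the other arm, the estimate was -0.54 (adjusted p = 0.338). Of the receptor genes past the size threshold, TGF-β over control had 0 higher, and 1 with GC and length offsets (Tnfrsf12a) or with RPKM above 1. TNF-α over control had 0 higher, and 1 with RPKM above 1. Costimulation over control had 1 higher, 2 with the offsets and 0 with RPKM above 5. Costimulation over TGF-β had 1 higher, and 0 on log2(RPKM + 1) or with RPKM above 5. No receptor gene that passed a test in the additive fit changed direction in another one. Depth limits Fas (4 to 20 reads), Cd40 (1 to 4) and the control value of Tnfrsf11b (26).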
